A study of Mus musculus with 6 samples.

Results

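The genes described here are Acta2, which encodes smooth muscle α-actin, and 8 genes of the contractile cytoskeleton, namely Tagln, Tagln2, Myl9, Tpm1, Tpm2, Des, Vim and Flna, measured in the livers of male mouse pups at postnatal day 6. All probes that carried one of these 9 symbols were taken from a bead array table of 25697 probes and 18138 symbols. In all, 12 probes of 7 genes were found, and neither Tagln2 nor Myl9 had a probe under its current symbol or an older one. The genes were chosen by their hSRY-ON against hSRY-OFF difference in these same arrays, so their differences are given as a description and no test is drawn from them.

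Both groups were FVB/N mice (FVB in the labels) of 1 transgenic line that carried a single copy of the Signalox-hSRY construct at the H11 locus. In this construct the ubiquitous CAG promoter precedes a DsRed2 stop cassette between loxP sites, followed by FLAG-tagged human SRY, an internal ribosome entry site and EGFP. In hSRY-OFF pups the cassette was intact, so they carried the silent human gene and expressed DsRed2. In hSRY-ON pups it had been removed in the zygote by Cre protein of the oocyte from Ddx4-Cre mothers, and the pups used for arrays did not carry the Cre transgene themselves. Each group had 3 arrays, 1 per animal. Neither the litters nor the mothers of the hSRY-OFF pups are given in the sources used here. The authors state that Cre from Ddx4-Cre oocytes recombines the construct efficiently whether or not the pup inherits Cre. Pups with an intact cassette are therefore unlikely to come from such mothers. The groups differ in DsRed2, EGFP and hSRY together, and probably in mother and litter, and these cannot be told apart. The authors also report minimal suckling, slow growth, fatty liver and early deaths in hSRY-ON pups. Feeding, body size, liver state and survival to the day of sampling may thus differ with the group as well. They are not given for the pups on the arrays and cannot be told apart from the rest. The human SRY transcript was not analysed here, so the labels were not checked against it.

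Smooth muscle α-actin polymerises into thin filaments that slide against myosin in vascular smooth muscle, in pericytes and in myofibroblasts. Transgelin binds and bundles these filaments, tropomyosins lie along them and control access of myosin, and a phosphorylated regulatory light chain such as Myl9 switches the myosin on. Desmin and vimentin build intermediate filaments, and filamin A crosslinks actin and ties it to the membrane. In liver, Acta2 is best known as a mark of vessel wall smooth muscle and of activated hepatic stellate cells, the vitamin A storing pericytes of the sinusoid. Many of these genes are transcribed under serum response factor (SRF), which binds the CArG box, a core of A and T between a C-rich and a G-rich end.

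Promoters are shown because the SRF site is what several of these genes are known to share. RefSeq promoter sequence (build GRCm38.p6) holds 1 window per gene, from 250 bases before to 50 after 1 transcript start, and was matched for 8 of the 9 genes. Tagln had no entry. The start used is the outer end of the annotated gene for Tagln2, Des and Vim, and lies inside it for the other 5, by 29 bases in Tpm2, 56 in Myl9, 212 in Acta2, 459 in Tpm1 and 3320 in Flna, so that longer transcripts of these genes begin elsewhere. Distances below are from the start used. Stretches of Acta2 and Myl9 are printed 5′ to 3′ on the strand of the gene, with capitals for CArG boxes in which 1 core base may be G or C. The Acta2 stretches are chr19:34255438-34255467 and chr19:34255388-34255417 on the minus strand, and the Myl9 stretch is chr2:156775294-156775383 on the plus strand.
Acta2, farther box: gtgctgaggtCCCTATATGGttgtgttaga
Acta2, nearer box: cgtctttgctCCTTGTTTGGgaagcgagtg
Myl9: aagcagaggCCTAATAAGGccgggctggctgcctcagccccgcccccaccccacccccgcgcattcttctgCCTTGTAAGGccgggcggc

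On both strands, a strict CArG box with only A and T in its core lay in the Myl9 window alone among the 8, at 161 bases before the start, and in 1.63% of 32851 promoter windows of the same length. The wider form was searched after the strict form had been seen to miss Acta2. It had 2 matches in Acta2, at 84 and 34 bases before the start, and 2 in Myl9, at 161 (the strict box) and 99 bases. At least 1 match of the wider form lay in 9.98% of all promoters and at least 2 in 0.822%. The SRY and SOX family core AACAAT was in none of the 8 windows and in 10.7% of all promoters, and TATAAA was in that of Vim, 32 bases before the start, and in 13.6% of all. These matches are letters in a window and were not tied to binding or to the intensities.

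**Figure D1:**
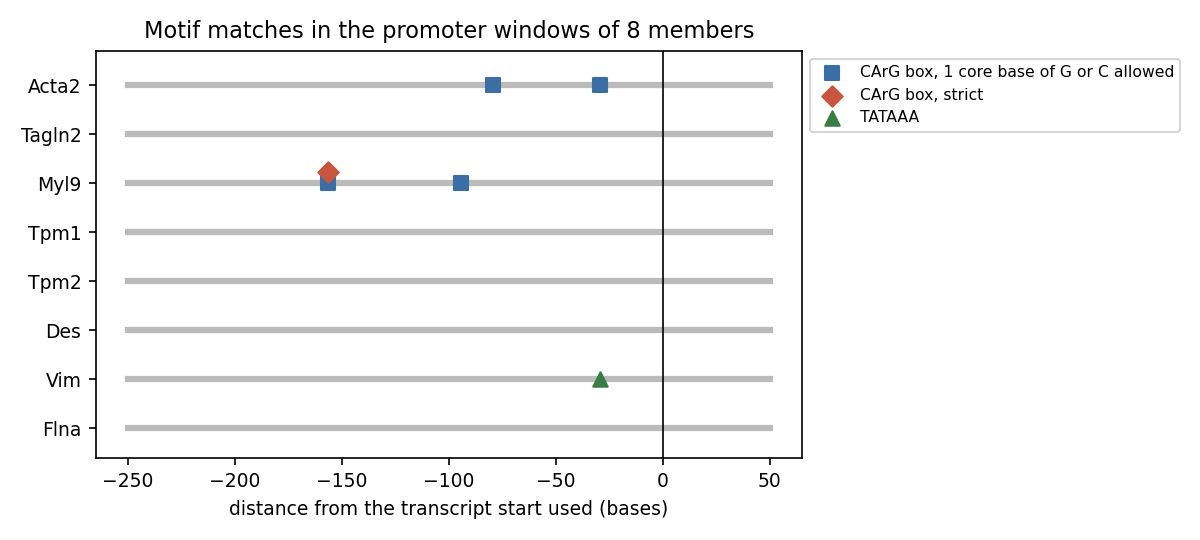
Motif matches in the promoter windows of 8 members; the horizontal axis is the distance from the transcript start used, in bases, and grey bars are the windows searched. Acta2 and Myl9 each hold 2 CArG boxes of the wider form, Vim holds 1 TATAAA, and the other 5 windows are empty.

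Across the whole table, 40.2% to 41.9% of probes were detected on each array (detection p under 0.01), and median deposited intensity ran from 147 to 165 without separating the groups. Over the tested probes, pairs of arrays correlated (Pearson, log2) at 0.987 to 0.992 inside the hSRY-OFF group, at 0.965 to 0.982 inside the hSRY-ON group, and at 0.912 to 0.939 across the groups. Of 10734 probes tested, 33.1% passed a Benjamini-Hochberg adjusted p of 0.05 in limma, 15.8% higher and 17.3% lower in hSRY-ON, and 25.4% had all 3 hSRY-ON values above all 3 hSRY-OFF values. The median log2 difference over all tested probes was 0.02. With so wide a background, a probe past the threshold is common in this comparison.

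Acta2 was higher on every hSRY-ON array by all 4 of its probes. Levels below are background-corrected, normalized log2 intensities with an offset of 16, and every difference is hSRY-ON minus hSRY-OFF on that scale with n = 3 in each group. The brightest probe, ILMN_2693895, read 10.94, 10.86 and 10.65 on the hSRY-OFF arrays and 13.34, 13.34 and 13.12 on the hSRY-ON arrays. Its deposited intensities, before any correction, were 2323, 2245 and 1502 against 11164, 10227 and 7781. The difference was 2.45 ± 0.13 (SE), or 5.47-fold, and the gap between the groups was wide against the SD of 0.15 within hSRY-OFF and 0.12 within hSRY-ON.

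The other 3 Acta2 probes gave the same direction. ILMN_2923445 read 8.19, 8.14 and 7.77 in hSRY-OFF and 11.18, 11.26 and 11.03 in hSRY-ON, a difference of 3.12 ± 0.15 (SE) or 8.72-fold. ILMN_2710354 read 7.39, 7.05 and 6.86 against 9.87, 9.80 and 9.30, which is 2.55 ± 0.20 (SE) or 5.88-fold. ILMN_2710353 read 7.11, 6.77 and 6.74 against 9.76, 9.62 and 9.05, which is 2.60 ± 0.21 (SE) or 6.07-fold. Within each group array 3 was the lowest for all 4 probes. Without background correction the 2 dimmest probes differed by 1.83 and 1.79, or 3.55-fold and 3.46-fold, so the size for dim probes rests on that step, while the brightest probe kept 2.34 to 2.52 over 15 alternatives.

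**Figure D2:**
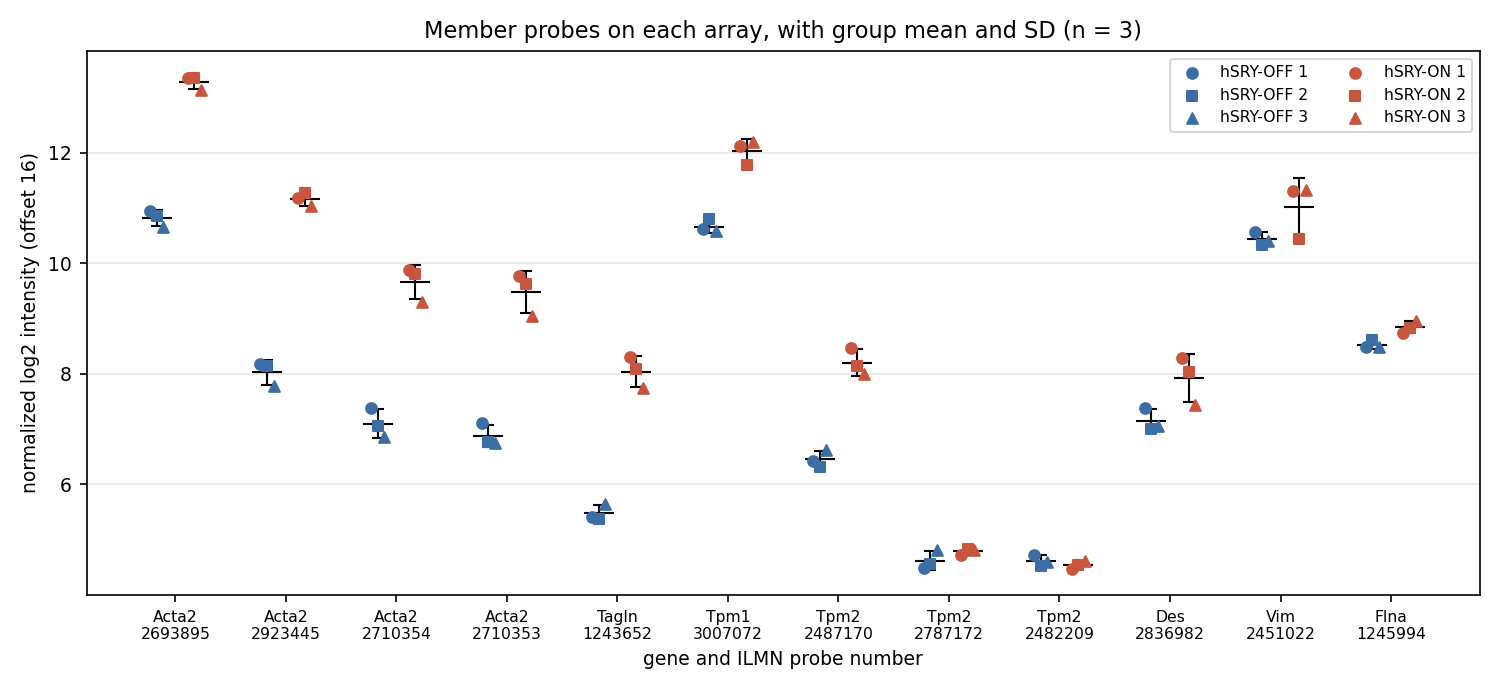
Normalized log2 intensity of the 12 member probes on each of the 6 arrays (symbols for replicate numbers, blue hSRY-OFF, red hSRY-ON), with bars for the group mean and SD. The Acta2, Tagln and Tpm1 points separate widely, hSRY-ON array 2 of Vim sits among the hSRY-OFF arrays, and 2 Tpm2 probes stay at the floor.

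Transgelin, an actin-bundling protein of smooth muscle, was detected only in hSRY-ON. Its single probe, ILMN_1243652, was above background on 0 of 3 hSRY-OFF arrays, where it read 5.41, 5.38 and 5.64, and on 3 of 3 hSRY-ON arrays, where it read 8.30, 8.08 and 7.74. Set against the lowest signal still detected on each hSRY-OFF array, hSRY-ON was at least 4.92-fold higher on the background-corrected scale. Without background correction the fitted difference was 1.20, or 2.30-fold, with the same direction, and the other bounds given below hold on the corrected scale too.

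Of the tropomyosins, the proteins that run along the actin filament, the members Tpm1 and Tpm2 were each higher by their detected probe. Tpm1 (ILMN_3007072) read 10.61, 10.79 and 10.58 in hSRY-OFF and 12.11, 11.77 and 12.19 in hSRY-ON, a difference of 1.36 ± 0.15 (SE) or 2.57-fold. Tpm2 (ILMN_2487170) read 6.43, 6.31 and 6.62 against 8.47, 8.14 and 8.001, a difference of 1.75 ± 0.16 (SE) or 3.36-fold, which was 1.97-fold without background correction. The groups did not overlap for either gene, and the lowest hSRY-ON array was number 2 for Tpm1 and number 3 for Tpm2. The other 2 Tpm2 probes, ILMN_2787172 and ILMN_2482209, were detected on 0 arrays and were not tested, so the Tpm2 value comes from 1 of 3 probes. Which tropomyosin isoforms each probe reads is not given in the sources used here.

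Intermediate filament genes and filamin A had differences below 1. Desmin (Des, ILMN_2836982), the filament protein of muscle and of stellate cells, read 7.39, 7.01 and 7.06 in hSRY-OFF and 8.28, 8.04 and 7.44 in hSRY-ON, a difference of 0.77 ± 0.23 (SE) or 1.70-fold. Its hSRY-ON array 3 lay just above the highest hSRY-OFF array. Leaving out any 1 array but that one took Des below the threshold of the fit, with differences of 0.59 to 0.88, as did median scaling (0.73) and testing without a filter. Leaving out hSRY-ON array 3 itself gave 1.01.

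Vimentin (Vim, ILMN_2451022), the filament protein of mesenchymal cells and leukocytes, read 10.57, 10.34 and 10.40 against 11.31, 10.43 and 11.32. Array 2 of hSRY-ON lay inside the hSRY-OFF range, so the groups overlapped, and the difference of 0.59 ± 0.25 (SE) was not past the threshold. Without that array it was 0.89 and past it. Filamin A (Flna, ILMN_1245994) read 8.48, 8.60 and 8.49 against 8.74, 8.83 and 8.95. Its groups did not overlap, but its difference of 0.32 ± 0.12 (SE), or 1.24-fold, was not past the threshold.

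Over the 10 member probes tested, differences ran from 0.32 to 3.12 with a median of 2.10. In all, 8 probes of 5 genes passed the threshold upward and 0 downward, where 15.8% of all tested probes passed it upward. For 9 of the 10 every hSRY-ON value was above every hSRY-OFF value, against 25.4% of all tested probes. Nothing is read from these counts, since the genes were chosen by this contrast. Among the hSRY-ON arrays number 3 was the lowest for 7 of the 10 probes, an order held by 36.4% of all tested probes, and the SD within hSRY-ON exceeded that within hSRY-OFF for 8 of the 10.

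**Figure D3:**
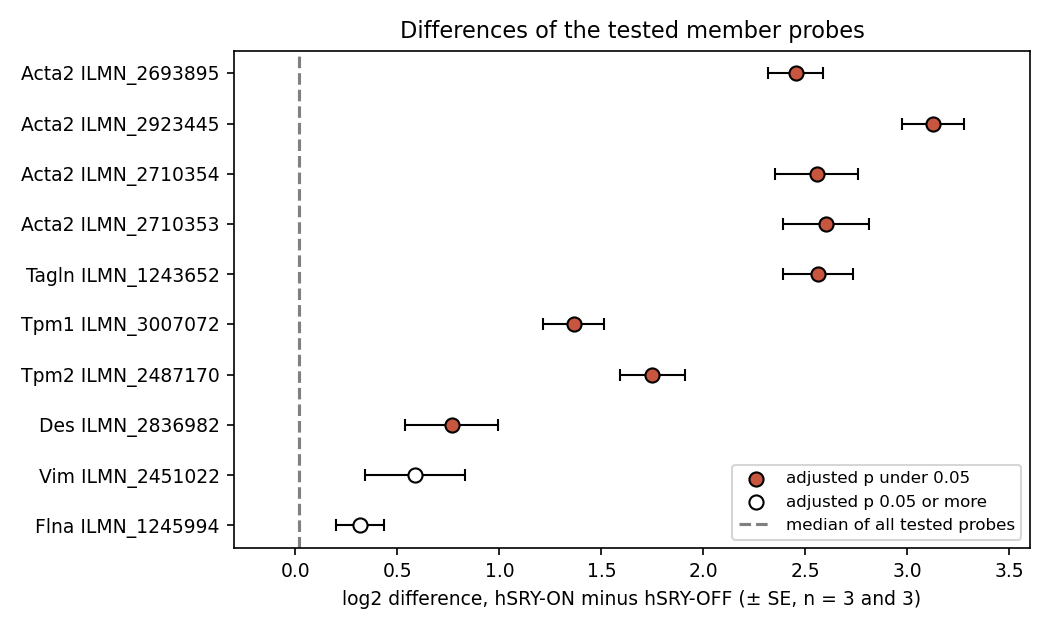
Log2 difference, hSRY-ON minus hSRY-OFF, of the 10 tested member probes with its SE (n = 3 and 3), where filled points passed an adjusted p of 0.05 in limma and the dashed line is the median of all tested probes. The 4 Acta2 probes and Tagln lie between 2.45 and 3.12, Tpm1 and Tpm2 at 1.36 and 1.75, and Des, Vim and Flna below 1.

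**Figure D4:**
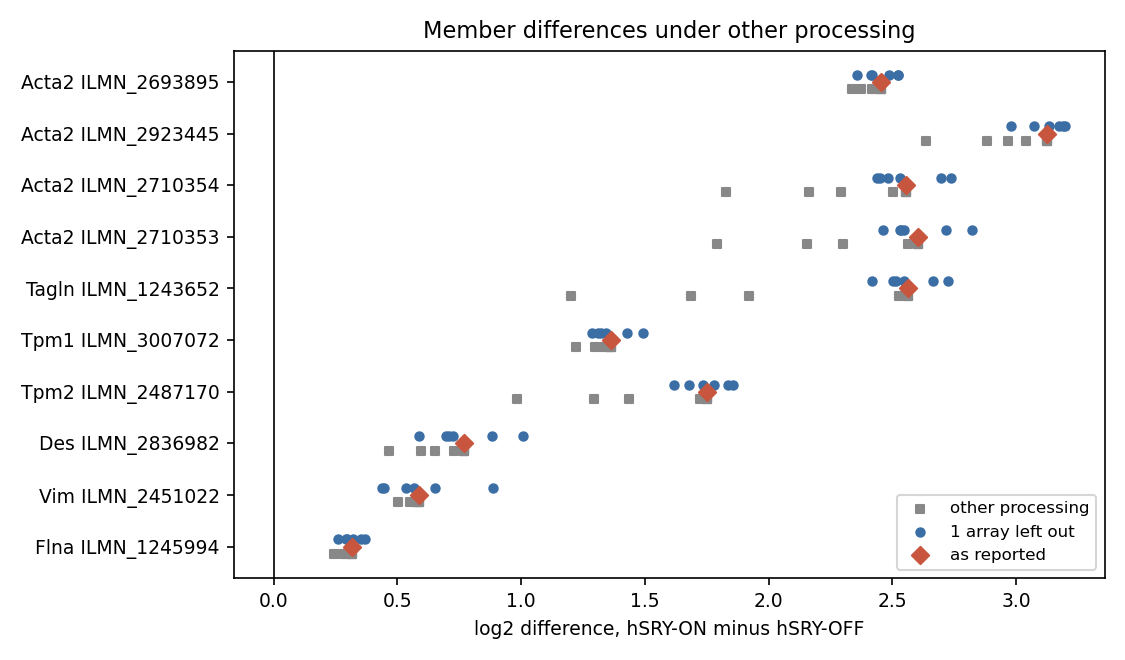
Log2 difference, hSRY-ON minus hSRY-OFF, of each tested member probe as reported (diamonds), with 1 array left out (circles) and under other background, scaling, filter and variance choices (squares). All points lie above 0, and the dim Acta2 probes, Tagln and Tpm2 move furthest.

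The gene whose profile came closest to that of the brightest Acta2 probe was another smooth muscle actin. Likeness was measured as the root mean square difference between log2 profiles, each centred on its own mean over the 6 arrays, among 9197 probes of other genes detected on all arrays. The nearest 5 were Actg2 (0.18), the metalloproteinase inhibitor Timp3 (0.22), the Wnt acyltransferase Porcn (0.23), the tetraspanin Cd9 (0.24) and the peroxisomal protein Pex11a (0.26). Of the other Acta2 probes, ILMN_2710354 was closer than Actg2 at 0.14, ILMN_2710353 came just after it and ILMN_2923445 stood at 0.34. Tpm2 stood at 0.40 and Tpm1 at 0.58, while Des (0.87), Vim (0.995) and Flna (1.08) were farther off, with Des placed at rank 629 among the probes of other genes. Tagln was not among the candidates because it was not detected on all 6 arrays. Such likeness describes 6 arrays that fall into 2 groups and carries no test.

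Among the other actins, the enteric smooth muscle actin Actg2 was the gene that changed. Actg2 read 6.23, 6.53 and 6.22 in hSRY-OFF and 8.76, 9.09 and 8.41 in hSRY-ON, a rise of 2.42 ± 0.19 (SE) with an adjusted p of 0.000275 in limma. Without background correction its difference was 1.44, or 2.71-fold in place of 5.37-fold, so its closeness to the brightest Acta2 probe rests on that step too. Muscle actin transcripts are closely similar, and whether the Actg2 and Acta2 probes share signal was not tested. The skeletal and cardiac actins Acta1 and Actc1 were detected on 0 arrays, and Actg1 had no probe. For the cytoskeletal actin Actb, 4 probes were tested and differed by -0.04 to 0.57 with none past the threshold, although ILMN_1377923 passed without hSRY-OFF array 3 (0.74). Its brightest probe, ILMN_2698799, differed by 0.13 with a 95% interval of -0.31 to 0.56.

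Of 14 other genes of the smooth muscle contractile programme, 5 could be tested and 3 of them rose, by 4 of 7 probes and with a median difference of 0.54. Beside the counts of this and the later lists, 15.8% of all tested probes rose and 17.3% fell. With detection required on all 6 arrays, 3 of 6 probes of this list rose. Myh11, the myosin heavy chain of smooth muscle, was higher by 1.56 ± 0.19, although it was detected on 1 hSRY-OFF array only. Its 3 hSRY-ON arrays were enough to pass the detection filter, so its p-value is not given. With undetected values held at the detection floor its difference was 1.44, and without background correction it was 0.65, or 1.57-fold in place of 2.96-fold. Mylk, the kinase that phosphorylates the myosin light chain, rose by 0.60 and 0.65 on its 2 probes (adjusted p = 0.0469 and 0.0474, limma), and the small heat shock protein gene Hspb6 rose by 0.54 ± 0.12 (adjusted p = 0.0145, limma). Smoothelin (Smtn) differed by 0.02 and 0.19 on 2 tested probes, with 95% intervals of -0.30 to 0.35 and -0.13 to 0.51. Another 8 genes of the list were detected on 0 arrays, among them calponin 1 (Cnn1), leiomodin 1 (Lmod1) and the SRF coactivator myocardin (Myocd). Leaving out hSRY-OFF array 1, or median scaling in place of quantile normalization, left 1 probe called in this list, and leaving out any other single array but hSRY-ON array 3 left 2. So did testing without a filter or with a detection p under 0.05. The Mylk calls were lost in most of these settings and that of Hspb6 without hSRY-OFF array 1 or 2 or under median scaling.

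In the list of 26 non-muscle contractile and actin-binding genes, 14 of 29 tested probes rose, 3 fell, and the median difference was 0.39. The focal adhesion genes Zyx and Vcl rose by 1.07 ± 0.13 and 1.21 ± 0.26 (adjusted p = 0.00118 and 0.0115, limma). Zyx read 12.28, 12.12 and 12.07 in hSRY-OFF and 13.16, 13.15 and 13.37 in hSRY-ON, with no overlap. Myh10, a non-muscle myosin heavy chain, rose by 0.87 ± 0.11 (adjusted p = 0.0018, limma) and Tpm4, a non-muscle tropomyosin, by 0.93 ± 0.13 (adjusted p = 0.00219, limma). Another tropomyosin gene, Tpm3, went the other way on ILMN_2444316, by -0.53 ± 0.20. Its hSRY-ON values were all below its hSRY-OFF values, but it did not pass the threshold. Of the regulatory light chain genes, which belong to the same class as Myl9, Myl12a rose by 0.86 ± 0.15 (adjusted p = 0.00484, limma) and 1 of 3 probes of Myl12b (Mylc2b on the array) rose, by 0.75 (lost without hSRY-OFF array 2), while the other 2 differed by 0.07 and 0.21. All 3 of the probes that fell were of Lasp1, a LIM and SH3 domain protein, at -0.75, -0.88 and -1.14. The call of the first of these was lost on leaving out any single array except hSRY-ON array 3, and that of the last without hSRY-OFF array 1 or 2, so that 1 probe of the list fell without either of these arrays, and 4 fell without hSRY-ON array 3.

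Of 11 other intermediate filament genes, 7 were tested and 1 probe of 12 rose, ILMN_1255510 of lamin A/C (Lmna) by 0.67 ± 0.20 (adjusted p = 0.0377, limma). The other 4 Lmna probes differed by 0.35 to 0.49 without passing, and the call of ILMN_1255510 was lost on leaving out hSRY-ON array 1 or any single hSRY-OFF array, which left 0 probes called. Without hSRY-ON array 2, 4 probes of the list were called higher. The keratins of hepatocytes, Krt8 and Krt18, were not past the threshold.

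Regulators of actin-dependent transcription and of contraction were tested as a list of 20 genes, of which 11 had a testable probe. In it 8 of 13 probes, of 7 genes, rose and 0 fell, with a median of 0.47. SRF itself read 7.57, 7.55 and 7.42 in hSRY-OFF and 8.26, 8.22 and 8.79 in hSRY-ON (Srf, ILMN_2988299), a rise of 0.91 ± 0.17 (adjusted p = 0.00785, limma), while its second probe was detected on 2 arrays and was not tested. Ppp1r14a, an inhibitor of myosin phosphatase, passed the detection limit on no hSRY-OFF array (0 of 3) and on 3 of 3 from hSRY-ON. Its level was at least 2.10-fold higher, with a fitted difference of 0.50 without background correction. It passed the detection filter through the hSRY-ON arrays alone, so its p-value is not given. The small GTPase genes Rhob and Rhoc rose by 1.02 ± 0.19 and 0.79 ± 0.12 (adjusted p = 0.00696 and 0.00279, limma). The SRF coactivators Mrtfa and Mrtfb were detected on 0 arrays. Leaving out hSRY-OFF array 1 brought the count that rose from 8 to 4, and under median scaling 5 rose.

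TGF-β, a ligand known to induce Acta2 in fibroblasts, was covered by a list of 18 genes, in which 4 of 14 tested probes rose, 3 fell and the median was 0.09. The ligand gene Tgfb3 read 6.34, 5.83 and 6.01 in hSRY-OFF and 8.60, 8.69 and 7.47 in hSRY-ON, a rise of 2.19 ± 0.33 (adjusted p = 0.00303, limma). Without background correction the Tgfb3 difference was 1.18, or 2.27-fold in place of 4.57-fold. Tgfb1 differed by 0.08 with a 95% interval of -0.27 to 0.43. Ccn2, a matricellular target of TGF-β and of other pathways listed on the array as Ctgf, read 8.44, 8.69 and 7.70 against 12.99, 11.89 and 11.17 and rose by 3.74 ± 0.46 (adjusted p = 0.00135, limma). In the other direction, Tgfbi, a matrix protein induced by TGF-β, fell by 1.08 and 1.13 on its 2 probes (adjusted p = 0.00554 and 0.00688, limma) and the signal transducer gene Smad2 by 0.60 ± 0.16 (adjusted p = 0.0244, limma), a call lost without hSRY-OFF array 1 or 2 or hSRY-ON array 2. The TGF-β targets Smad7 and Pmepa1 were detected on 0 arrays.

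Taking the 6 lists as one, 80 probes of 57 genes were tested, of which 40.0% rose and 7.5% fell, beside 15.8% and 17.3% of all tested probes, and the median difference was 0.36 beside 0.02. Several genes have more than 1 probe, so the probes are not independent of each other, and the lists were written with results of these arrays known.

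**Figure D5:**
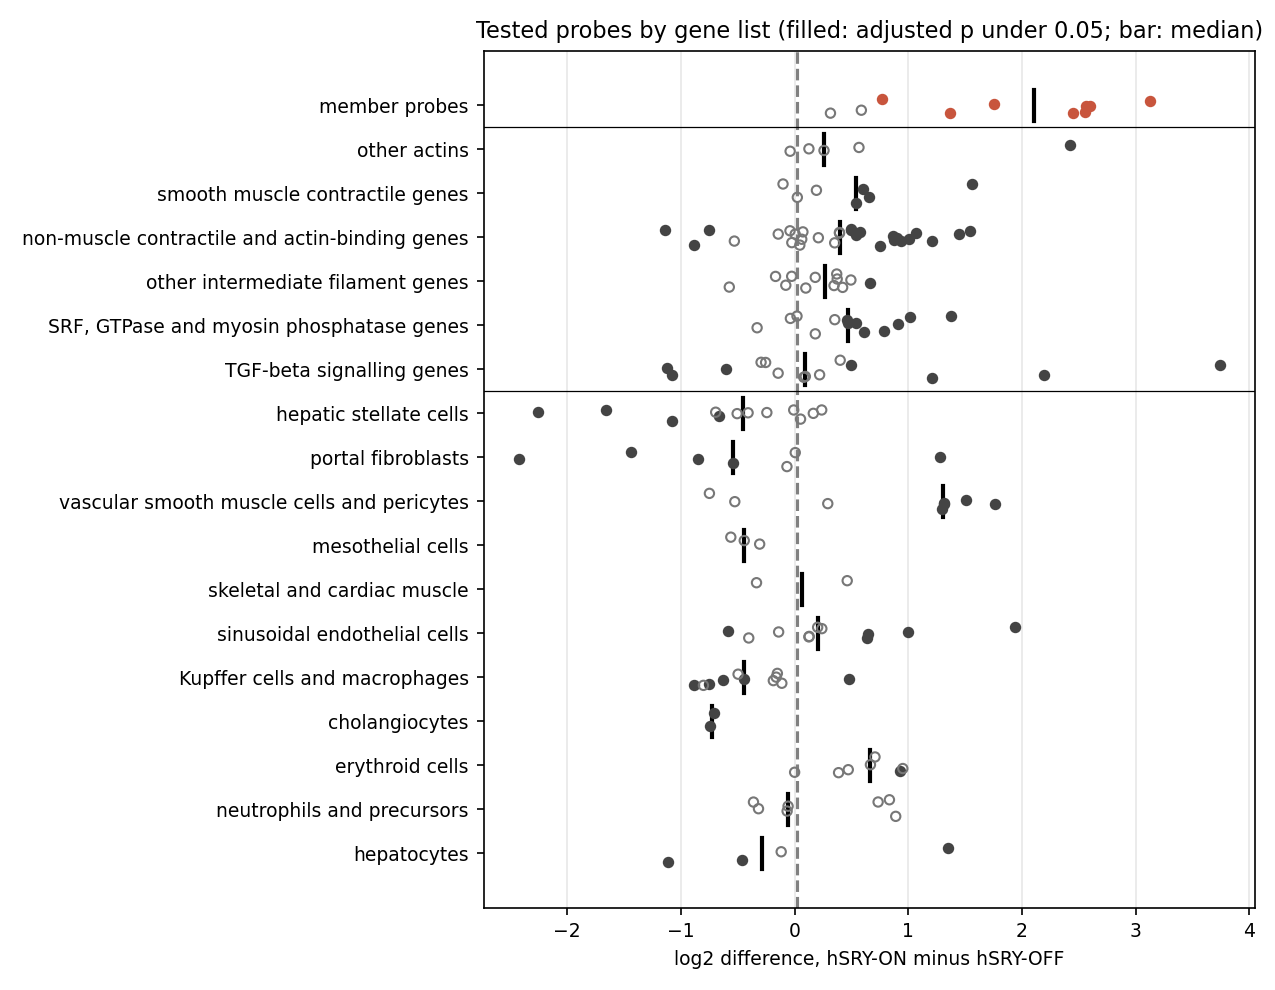
Log2 difference, hSRY-ON minus hSRY-OFF, of each tested probe by gene list (filled points passed an adjusted p of 0.05 in limma, bars are list medians, the dashed line is the median of all tested probes). The top row holds the member probes, the next 6 rows the related genes and the lowest 11 rows cell type markers, among which vascular smooth muscle and pericyte genes have the highest median at 1.30 and portal fibroblast genes one of -0.54. The median of 1.30 is over 8 probes, several of them of Mcam, and was 0.71 without background correction.

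Whole liver was measured, so fewer cells of a type and less RNA per cell cannot be told apart, and levels of cell type markers are therefore given beside the Acta2 result. Of the 7 markers of vascular smooth muscle cells and pericytes, 6 were tested and 3 rose, by 5 of 8 probes, where 15.8% of all tested probes rose. Their summed background-corrected intensity was 1238 to 1478 on hSRY-OFF arrays and 2560 to 3675 on hSRY-ON arrays. The adhesion molecule gene Mcam rose by 1.31 to 1.76 on 3 probes (adjusted p = 0.000292 for the strongest, limma), with 0.71 for the weaker 2 without background correction, and the potassium channel subunit gene Abcc9 by 1.30 ± 0.12 (adjusted p = 0.000403, limma). The regulator of G protein signalling Rgs4 rose by 1.51 ± 0.46 (adjusted p = 0.0396, limma), while the pericyte genes Rgs5 (-0.75 ± 0.27) and Notch3 (0.29 ± 0.15) did not pass. The Rgs4 call was lost without hSRY-OFF array 1 or 2 or hSRY-ON array 1 or 2, with the replicate block (adjusted p = 0.0765, limma) and without a filter (adjusted p = 0.0903, limma), and Notch3 (0.43) and Rgs5 (-0.95) passed without hSRY-ON array 3, as Rgs5 did under median scaling (-0.80).

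Markers of hepatic stellate cells had a median below 0. Of 12 tested probes of 10 genes, 0 rose and 4 fell, where 15.8% of all tested probes rose and 17.3% fell. The median was -0.46, and the summed intensity was 19749 to 23315 in hSRY-OFF against 13339 to 15948 in hSRY-ON. Lrat, which makes the retinyl esters stored by quiescent stellate cells, was above background on 3 arrays of hSRY-OFF and 0 of hSRY-ON. It was at least 2.23-fold lower, with a fitted difference of -0.59 without background correction. Lrat passed the detection filter through the hSRY-OFF arrays alone, so its p-value is not given. The neurotrophin receptor gene Ngfr fell by 2.26 ± 0.27 (adjusted p = 0.00116, limma; -1.29 without background correction) and the matrix glycoprotein gene Reln by 0.66 ± 0.12 (adjusted p = 0.00566, limma). Pdgfrb, a receptor of mesenchymal cells in general, differed by 0.24 with a 95% interval of -0.64 to 1.11, and by 0.68, past the threshold, without hSRY-ON array 3. Desmin, counted above, is also a gene of these cells and had the smallest difference of the called members.

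Of 7 tested probes of portal fibroblast markers, 1 rose and 4 fell, where 15.8% of all tested probes rose and 17.3% fell. Their summed intensities were 2246 to 2936 in hSRY-OFF and 1606 to 2145 in hSRY-ON. The microfibril gene Mfap4 likewise passed detection in hSRY-OFF alone (3 arrays against 0) and was at least 4.74-fold lower. Its p-value is left out as that of Lrat is, and Thy1 fell by 1.44 ± 0.27 (adjusted p = 0.00708, limma). Without background correction the fitted differences were -1.13 and -0.84. In contrast, the ectonucleotidase gene Entpd2 rose by 1.28 ± 0.25 (adjusted p = 0.00838, limma). Of the skeletal and cardiac muscle markers, 7 of the 10 with a probe, Ckm and Myh6 among them, were detected on 0 arrays, the 2 tested probes did not pass (1 rose without hSRY-OFF array 3), and their summed intensity was 84.4 to 143 in hSRY-OFF and 128 to 136 in hSRY-ON. The 3 tested probes of mesothelial markers, all of 1 gene, did not pass, but all 3 were called lower without hSRY-ON array 3. What part changes in the number of any of these cells have in the Acta2 values was not tested.

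Lists of the other liver cells are given as counts, beside 15.8% of all tested probes that rose and 17.3% that fell. Probes that rose and fell numbered 4 and 1 of 11 for sinusoidal endothelial cells, 1 and 4 of 11 for Kupffer cells and macrophages, 0 and 2 of 2 for cholangiocytes, 1 and 0 of 7 for erythroid cells, 0 and 0 of 7 for neutrophils and 1 and 2 of 4 for hepatocytes. Several of these counts turned on single arrays. Without hSRY-OFF array 3, 4 erythroid probes rose, as with the replicate block, and without hSRY-OFF array 1 none (0) did. Without hSRY-ON array 3, 4 neutrophil probes and 6 Kupffer cell and macrophage probes fell. The Kupffer cell and macrophage count that fell was 1 without hSRY-OFF array 2, and its 1 higher call was lost on leaving out any array. The cholangiocyte count was 0 without hSRY-OFF array 1 or 2, and 1 hepatocyte probe fell on leaving out any single hSRY-OFF array. The endothelial probe that fell lost its call on leaving out any single array except hSRY-ON array 2. The hepatocyte genes Apoc3, Alb and Ttr were each detected on all 6 arrays, with differences of 1.35, -1.11 and -0.46. The Alb probe was dim, with deposited intensities of 441, 448 and 269 in hSRY-OFF and 269, 245 and 202 in hSRY-ON. Ttr read 25773, 27095 and 25614 in hSRY-OFF. Without background correction the Alb difference was -0.64, so its size rests on that step and on a probe of low signal.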

How the data were processed

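The authors hybridised liver RNA of 6 pups to Illumina BeadChips (MouseRef-8). The deposited table gives the mean bead intensity of each probe on a linear scale, not background-subtracted or normalized, and the deposited detection p-value, which ranks a probe among the negative controls of its array. Scanner settings and probe sequences were not used here, and 0 columns lacked a sample. The submitters' processing notes name limma. The study also names TCC, a count method, which was not applied to intensities. The authors' own comparisons were not used.

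In R 4.3.3, the nec function of limma 3.58.1 removed the background (offset 16), and values were quantile normalized and put on the log2 scale. A probe was tested where 3 or more of the 6 arrays, of either group, had a detection p under 0.01. Group was the only term of the lmFit and eBayes model, and p-values were Benjamini-Hochberg adjusted over all 10734 tested probes with a threshold of 0.05, two-sided. The script was tested on 5 simulated data sets, in which 48.8% of log2 changes of 1 and 88.9% of 2 were called. Of the calls 5% were false. The simulated noise was independent between probes, its SD was capped, and 12760 to 13095 probes were tested. Each simulation changed only 200 probes, while 3554 were called in the data, so these shares may differ in the data. A change of 1 could miss the threshold in the simulations, and how often it does so in the data was not estimated. A probe undetected on every array of a group has only a bound there, computed from the lowest detected signal of each array. The number of arrays limits the precision. The p-values set each difference against the spread between these animals, which eBayes draws in part from all tested probes.

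Of 18138 symbols, 14307 were current, 2927 were updated through older names and 904 stayed unmatched (RefSeq, GRCm38.p6). The members and gene lists were chosen with earlier results of these data known. Genes were named by a rule: all member probes, 10 reference genes, up to 2 probes per direction with the smallest p in each list, and the 5 profiles nearest to Acta2. Further list genes were named after their values were seen, and the lists of other liver cells are given mainly as counts. Some genes that the rule names are not reported here. Groups and replicate numbers came from the labels. Same-numbered arrays deviated from their group means with correlations of 0.02, 0.10 and 0.05, and the numbers were not taken as pairs. Alternatives covered background, offset, scaling, filter, variance model, threshold, replicate block, symbol matching and leaving out each array.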

Additional observations from a re-analysis of the deposited data

How the results depend on the processing

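Of 158 member differences recomputed under alternatives, 0 changed sign, 149 kept their direction and side of the threshold, 8 lost the call (all Des) and 1 gained it (Vim without hSRY-ON array 2). The count of member probes past the threshold was 7 to 8 throughout, and Tagln could not be tested where detection on all 6 arrays was required. At an adjusted p of 0.01, 1665 of all tested probes passed in place of 3554, and 18 probes of the related genes in place of 38. Leaving out 1 array gave 2034 to 4060 for all tested probes, lowest without hSRY-OFF array 1 and 2166 without hSRY-OFF array 2, and 23 to 40 for probes of the related genes, lowest without hSRY-OFF array 1. With the replicate block, 3210 probes, 8 member probes and 35 related probes passed, while a block cannot move a difference in this balanced design. Median scaling moved the share of calls that were higher from 47.8% to 40.5%.

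Sign changes occurred among genes that were not called, and the cause was not tested. Under median scaling Actb ILMN_2698799 was -0.0041 and Smtn ILMN_2695181 -0.023. On leaving out 1 array, Actb ILMN_2698799 ran from -0.053 to 0.29, Actb ILMN_2846865 from -0.41 to 0.28 (0.28 without hSRY-OFF array 3, 0.0082 without hSRY-ON array 1), Smtn ILMN_2695181 from -0.031 to 0.12 (-0.025 without hSRY-ON array 1 or 3), Pdgfrb from -0.075 to 0.68 and Tgfb1 from -0.036 to 0.19. Actb ILMN_1377923 passed the threshold without hSRY-OFF array 3, at 0.74. Signals near background limit the values of Tagln, Ppp1r14a, Lrat and Mfap4 to bounds.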
